A study of Saccharomyces cerevisiae with 14 samples.

Results

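Chromosome XII of budding yeast carries the ribosomal DNA (rDNA), the tandem array of rRNA genes, and this array divides the chromosome into a left and a right side. The values below come from 5114 of the 59133 nuclear probes of a tiling array, namely the chromosome XII probes that lie more than 20 kb from both chromosome ends and outside the stretch around the rRNA genes. The left-out stretch lies between 450873 and 490571. Probes were chosen by position alone, in coordinates of genome build sacCer2. Of them, 2237 lie left of the rDNA (20010 to 450873) and 2877 right of it (490571 to 1056994), with a median distance of 190 bases between probe starts.

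Each of 14 arrays compared the genomic DNA of 1 strain, labeled with Cy5, with that of WT14, labeled with Cy3 (array CGH). WT14 is a diploid made by fusing S799, an SK1-derived strain, with YPH499, an S288C-derived one, so its homologues differ in sequence. The 13 TAQed strains are named by number: 1, 73, 76, 81 and 83, hybridized with WT14 on slide 1, then 84, 97, 101 and 106, and lastly 107, 113, 117 and 119, these 8 on slide 2. They are clones of this fused diploid in which the endonuclease TaqI was expressed under Cu2+ and activated by heat (42 °C, 30 min), and they had been picked for small colonies and altered cell shape. On the array labeled WT14 the same strain was in both channels. Its title calls WT14 a control strain, while the labels and the study's strain list give the TaqI treatment for WT14 too. The study also calls WT14 the parental diploid and mentions a control diploid without TaqI activation, which it does not name. Whether WT14 itself went through TaqI activation is therefore not settled here. All strains were grown in YPD. Each strain is 1 clone on 1 array with no dye swap, so no strain's value has a replicate, and every test below measures the spread between strains.

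In a diploid, a DNA break can be repaired from the other homologue, an unrepaired break can cost the chromosome its end, and a whole chromosome can be lost or gained at division. The rRNA genes recombine readily because the repeats are alike. A log2 ratio of Cy5 over Cy3 of -1 stands for 1 copy left of 2, and 0.58 for 1 copy added to 2. The RefSeq annotation of the S288C reference (assembly R64, another build than that of the arrays) lists 520 protein-coding genes on chromosome XII of 6002 on the nuclear chromosomes, 212 before the first rRNA gene, 291 after the last and 17 between them. By this gene order alone, with no value of its own for any gene, the left side holds RAD5 (post-replication repair), CDC45 (replicative helicase), HSP104 (protein disaggregase), HOG1 (osmotic stress kinase), PDC1 (pyruvate decarboxylase) and SMC4 (condensin). The right side holds TOP3 (topoisomerase), EST1 and EST2 (telomerase), SIR3 (silencing), CDC42 (polarity GTPase), FKS1 (glucan synthase), ILV5 (branched-chain amino acid synthesis) and HAP1 (haem-responsive transcription factor).

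Arrays had median Cy5 signals of 157 to 284.5, apart from strain 81 with 25, where 77.7% of the chromosome XII probes used here were well above background in both channels, against at least 99.96% elsewhere. The noise SD between neighboring probes was 0.19 in strain 81 and between 0.11 and 0.13 on the others. Between 1 and 11 of the 5114 probes per array were left out as outliers.

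Chromosome XII was higher than the rest of the genome in most TAQed strains, and far higher in strains 73 and 106. The median log2 ratio of its probes was -0.012 in WT14 against itself. Over the 13 TAQed strains the lowest value was -0.016 in strain 97, the median 0.099 and the highest 0.68 in strain 73. Strain 106 came second at 0.34, and the next, strain 119, had 0.15. Strains 76, 84, 81, 83 and 1 lay between -0.0018 and 0.048, with strains 113, 107, 101 and 117 between 0.099 and 0.15. Apart from the gaps of 0.34 below strain 73 and 0.19 below strain 106, neighbors in this order differed by at most 0.051. With 1 array per strain the order within these 11 has no error of its own. Without strains 73 and 106, the other 11 had a mean of 0.066 ± 0.062 (SD, n = 11).

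**Figure D1:**
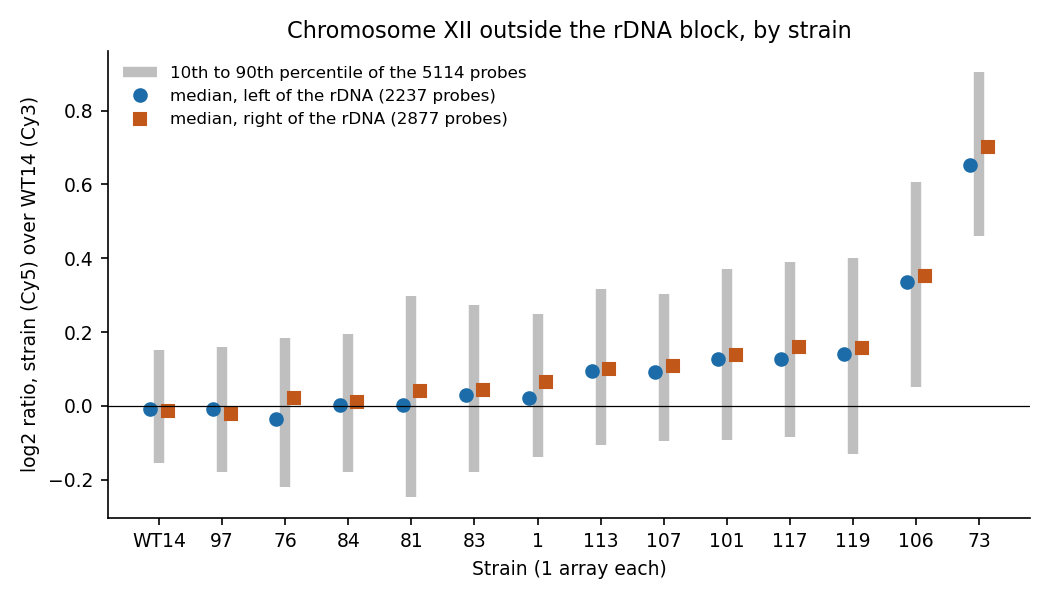
Log2 ratio of strain over WT14 on chromosome XII for each of the 14 arrays, with strains in order of their median. Circles and squares are the medians left and right of the rDNA, and the grey bar spans the 10th to 90th percentile of the 5114 probes. Strain 73 (0.65 left, 0.70 right) and strain 106 (0.34 left, 0.35 right) stand above the others.

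The median of chromosome XII was set against the median of the medians of the other 15 nuclear chromosomes in the same array. The difference averaged 0.16 ± 0.20 (SD, n = 13) and was above 0 in 12 of 13 strains, the exception being strain 97 at -0.019, and WT14 gave -0.014. The two-sided sign-change permutation test over strains gave p = 0.000977, and 0.00513 after Benjamini-Hochberg adjustment over the 6 tests of single values made here. Without strains 73, 76 and 106 the mean was 0.097 (permutation p = 0.00586). With normexp background correction it was 0.12 (permutation p = 0.0342), which did not pass after the same adjustment (0.205). Within slide 1 the mean was 0.18, where 5 strains cannot give a permutation p below 0.0625, the value found, and within slide 2 it was 0.15 (permutation p = 0.0234).

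Against chromosomes IV, VII and XV, which are long like chromosome XII, the difference was smaller. It averaged 0.069 ± 0.19 (SD, n = 13), was above 0 in 10 of 13 strains, and gave a permutation p of 0.170 (adjusted 0.255). Strain 81 had the lowest value, -0.15, with a chromosome XV median of 0.48, and without strain 81 the mean was 0.087 with a permutation p of 0.00635. The other negative values were -0.010 in strain 76 and -0.021 in strain 97. Within slide 1 the mean was 0.11 (permutation p = 0.625) and within slide 2 it was 0.044 (permutation p = 0.0234). The highest values were 0.66 in strain 73 and 0.13 in strain 106, and without strains 73, 76 and 106 the mean was 0.011 (permutation p = 0.611). For strain 106 the subtracted mean includes a chromosome IV median of 0.57, beside 0.035 on VII and 0.030 on XV. For strain 101 it includes 0.23 on chromosome IV. Raised chromosomes among the 3 thus lower the difference in these strains, as in strain 81.

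The right side was slightly higher than the left. The left median minus the right median averaged -0.023 ± 0.021 (SD, n = 13), ran from -0.059 in strain 76 to 0.013 in strain 97, and was negative in 12 of 13 strains, against 0.0041 in WT14 (permutation p = 0.00171, adjusted 0.00513). Within slide 1 it averaged -0.041 (permutation p = 0.0625, the smallest possible) and within slide 2 -0.011 (permutation p = 0.0469). The difference did not pass with normexp background correction (-0.0068, permutation p = 0.475), nor after removal of the trend along chromosome arms that the other 15 chromosomes show (-0.00055, permutation p = 0.938). The 2 sides differ in length, so their probes lie at different distances from the ends.

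The level of the chromosome was also set against the slide, WT14 and the rDNA block, and none of these tests passed. Slide 1 minus slide 2 was 0.038 (5 against 8 strains, exact permutation p = 0.755). The TAQed mean minus WT14 was 0.15 (13 against 1, exact permutation p = 0.286, where 0.143 is the smallest that 1 control array allows, so this test could not pass). The median of the 50 probes in the rDNA block was 0.44 in WT14 against itself, so its level is no copy number, and it ran from 0.11 to 0.60 in the TAQed strains. Its correlation with the chromosome XII median was r = 0.41 (permutation p = 0.128, adjusted 0.255) and rho = 0.27 (permutation p = 0.360) over 13 strains. It was r = 0.51 (permutation p = 0.108) without strains 81 and 101, which lie farthest from the middle of the rDNA values, r = 0.50 (permutation p = 0.163) within slide 2 and r = 0.028 (permutation p = 0.932) without strains 73, 76 and 106. Slide 1 holds too few strains for a value.

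In windows of 2 kb, limma found 0 of the 489 windows on chromosome XII changed between the 13 TAQed strains and WT14, at an adjusted p under 0.05, and 0 with an unadjusted p under 0.05. The background was 0% of the 5856 windows of the genome, of which 71 had an unadjusted p under 0.05. The median estimate was 0.14 over the chromosome XII windows and -0.026 over all windows. WT14 has 1 array, so this fit takes its spread from the TAQed strains, which differ from each other.

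Strain 73 was gained along the whole of both sides. Its called regions, segments above 0.3 joined over gaps of up to 20 kb, ran from 20010 to 450873 (median 0.65) and from 490571 to 1056994 (0.70), while the other 13 arrays had medians between -0.036 and 0.34 on the left and between -0.021 and 0.35 on the right. Of the 489 windows of 2 kb, 488 exceeded 0.3, against a background of 9.56% of all windows in this strain. Inside its regions 1 segment stayed under the limit, at 0.29 (815943 to 819134, 16 probes). In blocks of 40 kb its level ran from 0.54 to 0.86. Strain 1, from the same slide and chosen after the profiles were seen, ran from -0.097 to 0.19 over the same 26 blocks, and strain 73 minus strain 1 stayed between 0.60 and 0.68 (median 0.63, SD over blocks 0.019). The difference between the strains thus kept nearly the same size from end to end, slightly above the 0.58 of an added copy. Custom and catalogue probes of the array gave 0.67 and 0.68.

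Strain 106 was raised on both sides as well, but by less and unevenly. Its regions above 0.3 ran from 192684 to 450873 (median 0.42, 1352 probes) and from 490571 to 789620 (0.45, 1543 probes), that is, over 60.4% and 53.6% of the probes of each side. The steps at their outer boundaries were small, 0.065 and -0.13, so the extent depends on the processing. The called length was 557 kb here, 878 kb with normexp background correction and 514 kb with loess. In blocks of 40 kb strain 106 rose from 0.018 at the left end of the probes to 0.51 and 0.53 on either side of the rDNA. It fell to -0.040 at the right end (SD over blocks 0.15). Much of this slope was shared with strains 119 and 101 of the same slide, chosen after the profiles were seen. Strain 106 minus strain 119 stayed between 0.13 and 0.26 (median 0.20, SD over blocks 0.033). Strain 106 minus strain 101 ran from 0.071 to 0.26 (median 0.21, SD over blocks 0.043). Of the chromosome XII windows of strain 106, 302 of 489 exceeded 0.3, against 16.1% of all its windows. This background includes chromosome IV with a median of 0.57. Chromosomes VII and XV of strain 106 had medians of 0.035 and 0.030. They also rose inward from their ends, by 0.31 and 0.34, where chromosome XII rose by 0.39 (inner minus outer median, described below).

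Most other TAQed strains showed a smooth rise from both ends toward the rDNA. The median of the 1084 probes within 100 kb of the rDNA block minus that of the 987 probes between 20 and 120 kb from an end was -0.023 in WT14 and 0.0027 in strain 97, the lowest TAQed value. The TAQed median was 0.23 and the highest values were 0.34 in strain 101, 0.38 in strain 117, 0.39 in strain 106 and 0.45 in strain 119. In strain 119 the blocks of 40 kb began at -0.17 at the left, reached 0.38 and 0.40 on either side of the rDNA and fell to -0.24 at the right. Strain 97 and WT14 were flat, with blocks between -0.069 and 0.012 and between -0.041 and 0.022. On the left and right sides the rise had the same size to within 0.046 in the 12 strains other than 76, whose left end is low for another stretch described below.

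**Figure D2:**
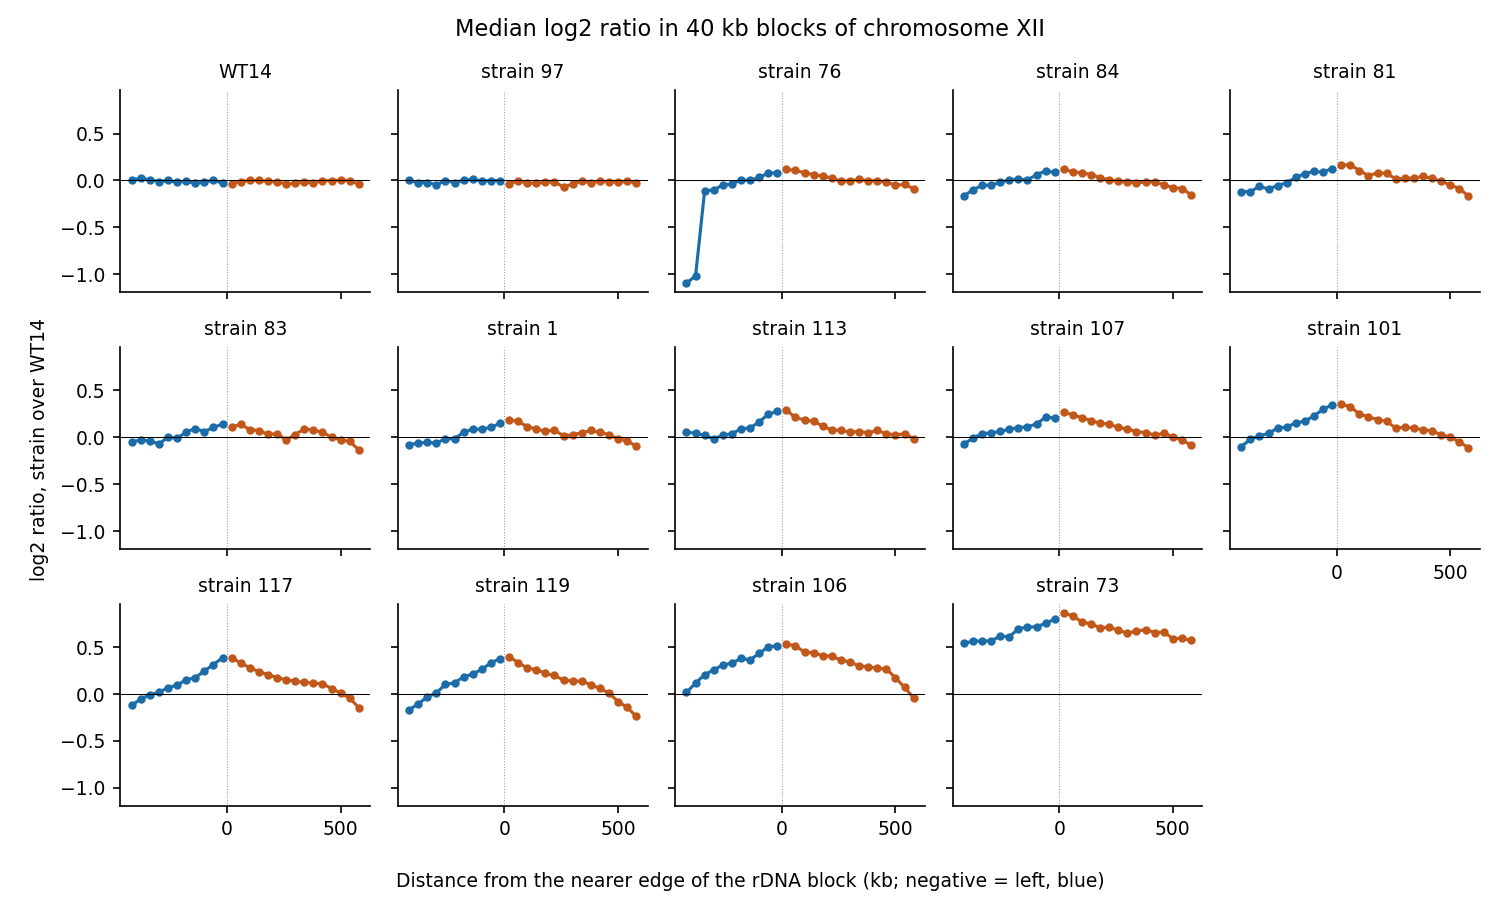
Median log2 ratio in 40 kb blocks of chromosome XII for each array, against the distance from the nearer edge of the rDNA block (left side negative). WT14 and strain 97 are flat, strains 101, 117, 119 and 106 rise toward the rDNA from both sides, strain 73 is raised throughout, and strain 76 drops near its left end to -1.02 and -1.10.

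A rise away from the ends was also present on the other long chromosomes. At the same distances from the ends (351 to 538 kb against 20 to 120 kb), chromosome XII had the highest value of XII, IV, VII and XV in strains 1, 73, 76, 83, 101, 107, 113 and 119. In the other 5 TAQed strains at least 1 of the 3 exceeded it, with 0.66 on chromosome IV of strain 106, 0.48 on XV of strain 81, 0.45 on XV of strain 117, 0.33 on IV of strain 84, and 0.021 on XV of strain 97. In strains 106, 81, 117 and 84 the chromosome named held a called region itself. Chromosome XII minus the mean of the 3 ran from -0.046 in strain 106 to 0.21 in strain 101, with a median of 0.097, and was above 0 in 10 of 13 strains, against -0.0081 in WT14. In both of these strains the mean includes a chromosome IV with a called region. With such chromosomes left out of the mean, the difference ran from -0.0016 in strain 97 to 0.19 in strain 117. Its median was then 0.095, and it was above 0 in 12 of 13 strains. These measures were chosen after the profiles were seen, so they are given with no test. Relative to the WT14 array, the Cy5 signal, which holds the strain's DNA, rose inward by 0.014 to 0.39. The Cy3 signal, which holds the WT14 reference, mostly fell inward. It changed by -0.091 to 0.012, with a median of -0.049, and was above 0 in 1 of 13 strains. Both channels thus enter the rise of the ratio, Cy5 with the larger change.

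**Figure D3:**
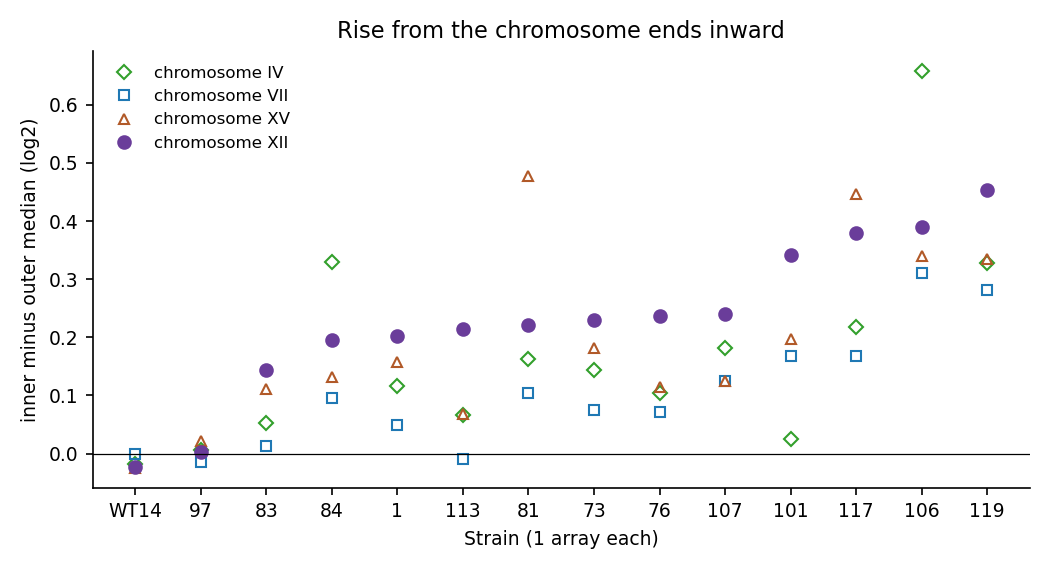
Inner minus outer median log2 ratio for each array, in order of the value of chromosome XII. Filled circles give chromosome XII (within 100 kb of the rDNA minus 20 to 120 kb from the ends), and open diamonds, squares and triangles chromosomes IV, VII and XV at the same distances from the ends. Chromosome XII lies above all 3 in 8 TAQed strains, and chromosome IV of strain 106, which holds a called region, is highest at 0.66.

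Strains 101, 117 and 119 were among the 6 TAQed strains with a called region of at least 20 kb. Their regions lay right beside the rDNA on both sides, from 381165 (377626 in strain 119) to 450873 and from 490571 to 576381, with medians of 0.33 and 0.34 in strain 101, 0.36 and 0.37 in strain 117, and 0.36 in strain 119 on each side. In WT14 the same stretches gave between -0.022 and -0.016. The steps at their outer boundaries, the median of 20 kb right of the boundary minus that of 20 kb left of it, ran from -0.098 to 0.099. At the right boundary the other 13 arrays had steps of -0.19 to -0.034, a range that holds the steps of these 3 strains there. At the left boundary of strain 119 its step of 0.099 lay above those of the other arrays, which reached 0.086. Segments of strains 73 and 106 broke at the same right-hand probe, with 0.85 and 0.53 before 576381 and 0.71 and 0.40 after 576565. Other breaks were also shared by arrays, such as that between 989427 and 989439 in strains 1, 76, 84, 101 and 107. With a limit of 0.4 in place of 0.3, or after removal of the trend along chromosome arms, 3 strains had a call (73, 76 and 106). With normexp 5 strains had one, without strain 101.

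Windows above 0.3 numbered 90 of 489 in strain 119 against a background of 3.45%, 85 in strain 117 against 2.68%, and 65 in strain 101 against 6.03%. Strain 113 had 21 windows against a background of 1.38%, and strain 107 had 5, which is 1.02% and near its background of 1.18%. WT14 and strains 1, 76, 83, 84 and 97 had 1 each, the window from 980001 to 982000 in all 6. This window of 3 probes was at 0.45 in WT14 against itself and between 0.22 and 0.75 in every TAQed strain.

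Strain 76 was low at the left end of chromosome XII. Over 20010 to 77503 its median was -1.11 (299 probes), while WT14 had 0.014 and the other 12 TAQed strains lay between -0.14 and 0.55, the latter in strain 73. The remaining 1938 probes of the left side had a median of -0.011. The 3 probes before the boundary (starting at 77291, 77328 and 77446) read -1.18, -1.06 and -1.17, and the 3 after it (starting at 77678, 77897 and 78213) read 0.039, 0.060 and -0.11. On these probes the other 13 arrays reached down to -0.42 before the boundary and to -0.24 after it. The boundary thus falls between 77503 and 77678. The step over 20 kb on either side was 1.00, and steps at that place on the other 13 arrays were between -0.033 and 0.037.

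**Figure D4:**
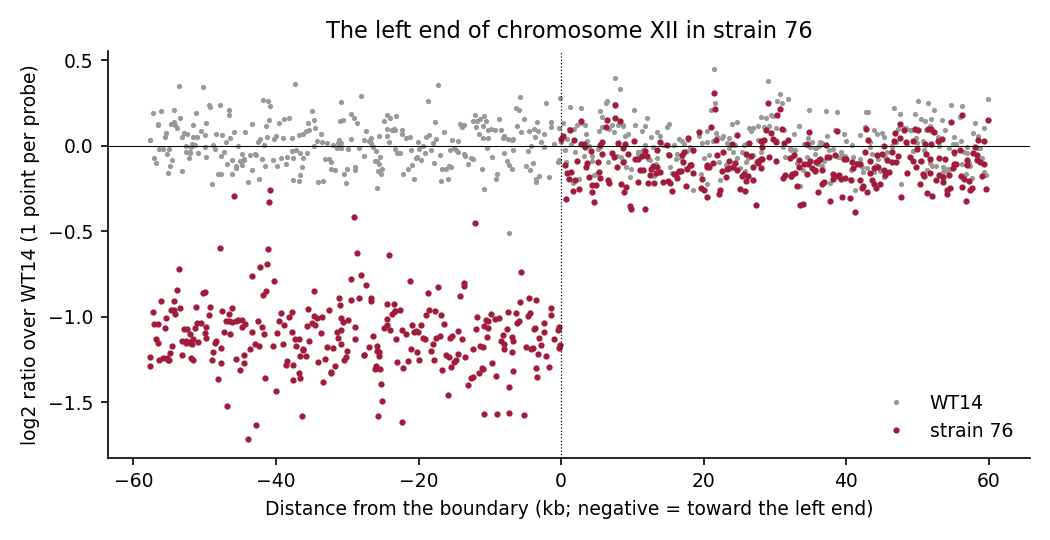
Log2 ratio of each probe of strain 76 and of WT14 against the distance from the boundary of strain 76, over the left part of chromosome XII. Strain 76 lies near -1.11 left of the boundary and near 0 right of it, while WT14 lies near 0 on both sides.

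Windows below -0.3 numbered 29 of 489 on chromosome XII of strain 76, against a background of 0.683% of its windows, and 8 of the 10 windows with the widest range over the TAQed strains fell in this stretch. Their ranges ran from 1.72 to 1.81, between strain 73 as the highest and strain 76 as the lowest, where the median window ranged over 0.74. Of the 13 boundaries between called and uncalled segments on chromosome XII, the other 12 had steps of at most 0.13 in size. None of the 12 exceeded the range of the other arrays at the same place by more than 0.023. Medians over 20 kb cannot register segments of a few kb, and some of the 12 bound such segments. In strain 83, 11 probes from 732005 to 734177 had a median of -0.58 after a segment at 0.078, yet the step there was -0.057. In strain 73, 16 probes from 815943 to 819134 had 0.29 after a segment at 0.61, with a step of 0.023. No annotation of build sacCer2 was used here, so genes on either side of the boundary are not named.

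The other 2 of the 10 widest windows lay right of the rDNA, and in both strain 73 was highest and strain 83 lowest. From 732001 to 734000 (9 probes), strain 73 read 1.14, strain 106 read 0.88 and strain 83 read -0.64, with WT14 at 0.0069. From 954001 to 956000 (11 probes) the 3 strains read 0.91, 0.55 and -0.83, with WT14 at 0.011. The window from 818001 to 820000 (10 probes) ran the other way, with 0.081 in strain 73, -0.34 in strain 106 and 0.28 in strain 83, with WT14 at -0.041. It was the only one of the 489 windows where strain 73 was not above 0.3. These windows led to a look at single probes.

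For each probe a deviation was taken as its log2 ratio minus the running median of 51 probes around it, less the median of the same quantity over the other 13 arrays. A shift that neighboring probes share and effects that all arrays share drop out of it. A response to copy number that differs from probe to probe does not. Right of the rDNA, strain 83 had 122 probes that deviated by over 0.4 in either direction, 97 below and 25 above, and left of it 0 of 2237. That is 4.24% of the right side, against a background of 0.538% of all probes in strain 83. Strain 73 had 104 such probes right and 12 left (background 0.41%), and strain 106 had 100 right and 1 left (background 0.756%). In WT14 the counts were 12 right, 10 of them between 100 and 200 kb from the rDNA, and 0 left, and in the TAQed strains other than 73, 81, 83 and 106 there were at most 8 right. The noisy array of strain 81 had 216 right and 125 left.

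In these 3 strains the deviations fell on shared probes, with opposite signs between strain 83 and the other two; the probes were chosen after their values were seen, so no test is given. The 97 probes that were low in strain 83 were high in strain 73 and in strain 106 without exception, with median deviations of 0.40 and 0.41, and the 25 that were high in strain 83 were low in both, with medians of -0.73 and -0.74. On the other 11 arrays the median deviation of these probes lay between -0.019 and 0.0036 for the first set and between -0.041 and 0.062 for the second. Single probes of the second set were high elsewhere too. The highest deviation was 0.59 in WT14, 0.50 in strain 1, 0.52 in strains 76 and 84, 0.61 in strain 81 and 0.64 in strain 97. It was at most 0.19 in strains 101, 107, 113, 117 and 119. As log2 ratios, the 97 probes had a median of -0.55 in strain 83, 1.12 in strain 73 and 0.77 in strain 106, where all 2877 right-side probes had 0.044, 0.70 and 0.35. The 25 probes had medians of 0.54 in strain 83, -0.034 in strain 73 and -0.41 in strain 106.

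Single probes show the size of the contrast. The probe at 657779 to 657838 read -3.94 in strain 83, 1.75 in strain 73 and 1.44 in strain 106, against 0.012 in WT14. The probe at 605603 to 605662 read -2.75, 1.62 and 1.29, against -0.067 in WT14. The probe at 815943 to 816002 had the opposite signs, with 0.70 in strain 83, -0.72 in strain 73 and -1.19 in strain 106, against 0.0029 in WT14. Of the 97 low probes, 1 was not well above background in Cy5 in strain 83, so its ratio is only a bound.

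**Figure D5:**
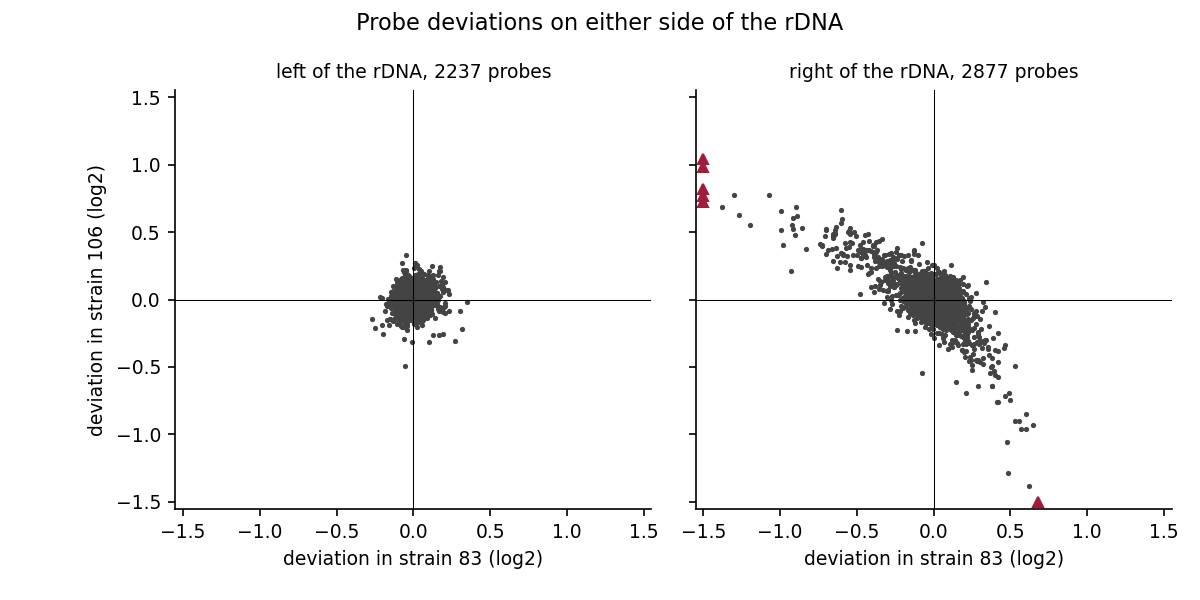
Deviation of each probe (log2 ratio less the running median and less the other arrays) in strain 106 against strain 83, left and right of the rDNA. Right of the rDNA the points run from upper left to lower right, and left of it they form a round cloud. Triangles mark 6 probes beyond the plotted range of 1.5, drawn at its edge.

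Over the probes of the right side, deviations correlated at r = 0.80 between strains 73 and 106, -0.68 between 73 and 83 and -0.65 between 83 and 106. The other 88 pairs of arrays had r between -0.22 and 0.23 on the right. On the left the same 88 pairs lay between -0.26 and 0.24. There the pairs named first had r = -0.19 (73 and 106), -0.11 (73 and 83) and 0.12 (83 and 106). These values describe probes, which share base composition and the WT14 reference DNA, and carry no p. Custom probes alone gave -0.68 between strains 83 and 106, and catalogue probes alone -0.65.

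The pattern filled the right side from its first to nearly its last probe. The first probe after the rDNA block, at 490571 to 490630, already deviated by over 0.4 in strain 83, and the last to do so lay at 1047506 to 1047565, with the side ending at 1056994. Per 100 kb from the rDNA outward, strain 83 had 32, 11, 20, 20, 19 and 20 such probes. Left of the rDNA, up to 450873, strain 83 had none. The log2 ratio of strain 83 had medians of 0.10 and 0.11 within 100 kb left and right of the rDNA. The cause of the deviations was not tested.

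A mirrored pair was also found in the low stretch of strain 76. Over its 299 probes, the deviations of strains 73 and 76 correlated at r = -0.66, where the other 90 pairs of arrays had r between -0.27 and 0.27. The 13 probes more than 0.3 low in strain 76 were all above 0 in strain 73 (median 0.10), and the 15 more than 0.3 high were all below 0 there (median -0.15). Strain 106 had medians of -0.047 and 0.041 for the same probes. For these counts the limit was 0.3 in place of the 0.4 used above, and no test is given. At 0.4, strain 76 had 10 such probes on the whole left side (0.447%), against a background of 0.13% of all its probes.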

How the data were processed

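Genomic DNA of 14 strains was hybridized to 2-colour Agilent tiling arrays. The deposited scanner files hold the intensity of each spot, which the authors extracted with Agilent Feature Extraction 11.0.1.1, with background subtraction and a linear dye normalization. The deposited series matrix holds log10 ratios of the same arrays, which equalled the scanner files' own log ratios to within 5.0e-08. Genome build sacCer2 was used by the authors.

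Here the log2 ratio of processed Cy5 over Cy3 intensity was centred on each array's median, after 997 control spots and spots with outlier flags were left out. Levels are medians over probes. Profiles were cut into segments by least-squares partitioning (penalty 10, at least 10 probes a segment, left and right side apart) and called beyond 0.3 in size over at least 20 kb. Tests over strains were two-sided sign-change or exact permutation tests (100000 resamples for correlations), and 2 kb windows of at least 3 probes were tested with limma 3.58.1 in R 4.3.3, with Benjamini-Hochberg adjustment at 0.05. Other steps used Python 3.11.15 with numpy 2.4.6 and scipy 1.17.1. Arrays give no count depth, and the number of arrays limits the precision.

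The members, lists and measures were chosen with earlier results of these data known. Genes were to be named at segment boundaries and from a list of 35 genes of chromosome XII. As no annotation of build sacCer2 was used here, boundary genes are not named and listed genes are placed only by RefSeq order. Alternatives were normexp background correction (offset 50, on median signals), loess, other centring, the series matrix, dim-probe and outlier filters, subtraction of the WT14 array, removal of the trend along chromosome arms, means, wider margins, other segment and window settings, and subsets of strains.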

Additional observations from a re-analysis of the deposited data

Results flagged for a closer look

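The probes within 20 kb of the chromosome ends enter none of the comparisons above. At the left end (55 probes) strain 73 had a median log2 ratio of 0.715 and strain 76 of -0.769, while WT14 against itself had 0.19 and the other 11 strains lay between -0.028 and 0.31. At the right end (46 probes) strain 73 had a median of 0.806, with 0.17 in WT14 and between -0.095 and 0.33 in the other strains. WT14 was thus above 0 at both ends, and the cause was not tested.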

How the results depend on the processing

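The excess of chromosome XII over the other chromosomes kept its direction in all 18 alternatives and passed at an unadjusted p in 17 of them. The other centring, counted among them, shifts each array by a constant. It could therefore not change the excess of chromosome XII or the left-right difference. Within slide 1 the excess was 0.1788, where 5 strains cannot pass. Adjusted over the tests run in each setting, it passed in 16, with normexp background correction giving 0.12 (permutation p = 0.0342, adjusted 0.205). Against chromosomes IV, VII and XV, 9 of 12 alternatives did not pass either, and 3 did by unadjusted p, with 0.09642 after removal of the trend along chromosome arms, 0.08675 without strain 81 and 0.04416 within slide 2. By unadjusted p the left-right difference held in 15 of 18 alternatives (14 when adjusted, slide 2 alone then giving 0.0625), and did not pass with normexp (-0.006811), after trend removal (-0.0005537) or within slide 1 (-0.04124). The correlation with the rDNA block turned negative with loess (r = -0.1632, permutation p = 0.668). The rise toward the rDNA, a median of 0.23 over strains, was 0.1003 after trend removal, above 0 in 12 of 13 strains, and within the spread in its other 5 alternatives. The causes of these changes were not tested. The boundary of strain 76 stayed at the same probe in 11 of 12 settings and moved by 219 bases in the other, with a step of 0.76 to 1.03. The other centring and the other widths for the step, counted among the 11, could not move the boundary. The opposite signs of strains 83 and 106 held for 108 of 122 probes with normexp, for all 101 that have a value in the series matrix, and for 121 or 122 in the other 5 settings. Strains with a called region numbered 3 after trend removal and 3 at a limit of 0.4, and between 5 and 8 in the other 12 settings, against 6. The alternatives for the rise toward the rDNA and for the opposite signs, the adjustment within each setting, and those without strain 106, were chosen after seeing the data. limma called 0 windows in all 12 alternatives. No paired analysis was possible because WT14 has 1 array and replicate numbers only name the strains.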
